A study of Rattus norvegicus with 6 samples.

Results

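Platelet-derived growth factors (PDGF), fibroblast growth factors (FGF) and related secreted factors were examined in primary vascular smooth muscle cells (VSMCs) of rat thoracic aorta. The 10 genes were given by name: the PDGF ligands Pdgfa, Pdgfc and Pdgfd, the PDGF receptors Pdgfra and Pdgfrb, the ligand Fgf2 with the receptors Fgfr1 and Fgfr2, and the secreted factors Vegfd and Ptn. All 10 are listed, 1 row each, among the 13526 genes of the deposited table, and all 10 passed the filter for testing. RNA was sequenced from 3 samples of the OM plus EMPA group and 3 samples of the OM group. Both groups were wild-type cells in a calcifying medium, given in the treatment protocol of the labels as osteogenic media (OM) with 10 mM β-glycerophosphate and 3.5 mM CaCl2. The sample titles and the table's columns abbreviate the medium as Pi, which in the paper stands for a different medium with inorganic phosphate, while its legend for the RNA-seq gives OM. The groups are called OM here after the protocol, and the conflict could not be settled from these sources. The OM plus EMPA group also received 1 μM empagliflozin (EMPA), a glucose-lowering drug that blocks the renal transporter SGLT2. Culture lasted 5 days according to the sample labels, and the legend of the paper gives another duration. No cells in complete media enter the analysis, and each value compares empagliflozin with no empagliflozin in cells kept in that medium. The cells were grown out of pieces of the medial layer of male rat aortas and used after several passages. The sources do not tell if replicates are separate animals or cultures, and the p-values then cover only the spread among these libraries, which could be technical.

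PDGF and FGF ligands act through receptor tyrosine kinases, whose dimers recruit adaptors and switch on the Ras-MAPK and PI3K pathways. In the vessel wall these signals are known for driving smooth muscle cells to divide and migrate and to lower their contractile proteins. PDGF-A and PDGF-C engage mainly the α receptor and PDGF-D mainly the β receptor, while FGF2 binds FGFR1 and the c splice forms of FGFR2. VEGF-D is a ligand of the lymphatic receptor VEGFR-3, and pleiotrophin, the product of Ptn, is a heparin-binding factor that binds the receptor phosphatase PTPRZ1 and syndecans.

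Levels are given in TPM, a relative transcript abundance corrected for transcript length, with library totals that are close to equal. The depth behind a value is therefore unknown, and levels of different genes can be compared. With empagliflozin, 2 of the 10 genes rose, Vegfd and Ptn, and 1 fell, Pdgfra. Vegfd averaged 26.8 ± 2.95 TPM in the OM plus EMPA group versus 15.03 ± 2.96 TPM in the OM group (SD, n = 3 each), a ratio of 1.78. Ptn averaged 4.69 ± 0.351 TPM in the OM plus EMPA group versus 2.37 ± 0.601 TPM in the OM group, a ratio of 1.98. Pdgfra averaged 98.3 ± 5.38 TPM in the OM plus EMPA group versus 126 ± 15.2 TPM in the OM group, a ratio of 0.779. The other 7 genes, among them the 3 PDGF ligands and the 2 FGF receptors of the 10, did not pass the test. Pdgfb, another PDGF ligand gene, was not listed. In these bulk samples fewer cells of a type and less RNA per cell cannot be told apart. A gene was called where limma on log2(TPM + 1) gave a Benjamini-Hochberg adjusted p no larger than 0.05, over the 12564 genes that averaged 1 TPM or more. That threshold called 6.92% of tested genes, 2.06% as higher and 4.86% as lower (259 and 611 genes). Under median-ratio scaling of the libraries the split was 394 higher and 380 lower. The median log2 fold change was 0.06 over the 10 genes and -0.05 over all tested genes. In 3 of the 10 genes the groups did not overlap, the same Vegfd, Ptn and Pdgfra, and 30.4% of tested genes had groups that did not overlap.

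**Figure D1:**
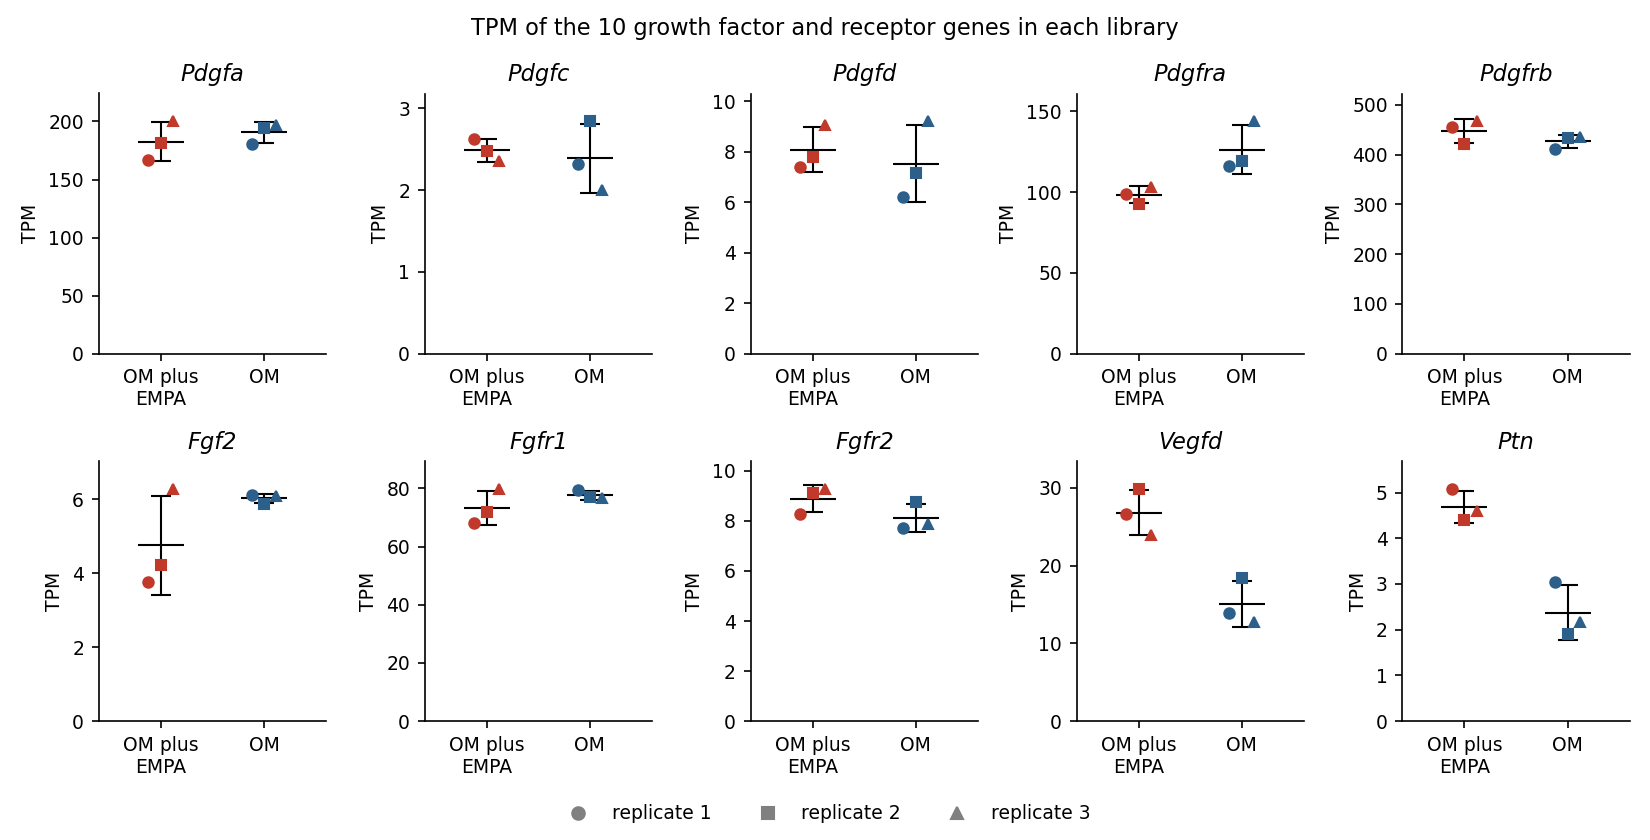
TPM (vertical axis, starting at 0) of the 10 genes in each of the 3 OM plus EMPA libraries (red) and 3 OM libraries (blue), with the symbol's shape giving the replicate, the mean as a horizontal line and the SD as the error bar. The groups separate for Vegfd, Ptn and Pdgfra, and overlap for the other 7 genes.

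In each library the β receptor Pdgfrb was the most abundant of the 10 transcripts, at 447.9 ± 24.3 TPM in the OM plus EMPA group versus 427 ± 13.6 TPM in the OM group. Pdgfa, Pdgfra, Fgfr1 and Vegfd followed in this order in both groups. Below them, Fgfr2 and Pdgfd had ranges that overlapped each other in both groups, at 8.28 to 9.28 and 7.38 to 9.07 TPM in the OM plus EMPA group and at 7.73 to 8.77 and 6.21 to 9.20 TPM in the OM group. The lowest 3 genes were Fgf2, Ptn and Pdgfc. Ptn could not be told from Fgf2 in the OM plus EMPA group, nor from Pdgfc in the OM group, since the ranges overlapped.

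Vegfd, which encodes VEGF-D, had 26.6, 29.9 and 24.0 TPM in the 3 OM plus EMPA libraries, against 13.9, 18.4 and 12.8 TPM in the 3 OM libraries. The lowest OM plus EMPA library lay above the highest OM library. Its log2 fold change was 0.80 (SE 0.13, 95% interval 0.49 to 1.11, adjusted p = 0.0147 from limma). Leaving out OM plus EMPA replicate 2 ended the call (log2 fold change 0.73, adjusted p = 0.0585 from limma), as did leaving out OM replicate 1 (0.76, adjusted p = 0.0558 from limma), and it held in the other 4 fits with 1 library left out. In the table Vegfd (ENSRNOG00000003587) lies on the minus strand of chromosome X from 30072691 to 30108298, in a build not given in the sources used here, and no other listed gene overlaps it.

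Ptn, a growth factor of neural and skeletal development, had 5.08, 4.40 and 4.59 TPM in the OM plus EMPA libraries, against 3.05, 1.90 and 2.17 TPM in the OM libraries. The groups did not overlap, although the transcript was scarce in both. Its log2 fold change was 0.77 (SE 0.14, 95% interval 0.44 to 1.10, adjusted p = 0.0223 from limma) on the log2(TPM + 1) scale, which understates the change of genes this low, and 0.98 with a pseudocount of 0.1 TPM. Without OM replicate 1, the highest of its group, it was 0.91 (adjusted p = 0.0192 from limma). The call was lost with any other single library left out, at a log2 fold change of 0.67 to 0.80 and an adjusted p of 0.0501 without OM replicate 2, 0.0604 without OM plus EMPA replicate 3, 0.0653 without OM plus EMPA replicate 2, 0.0740 without OM plus EMPA replicate 1 and also 0.0738 without OM replicate 3, all from limma. Ptn (ENSRNOG00000011946) lies on the minus strand of chromosome 4 from 65293734 to 65375456 and overlaps no other listed gene.

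Pdgfra, the α receptor that marks many mesenchymal and fibroblast cells, had 98.9, 92.7 and 103 TPM in the OM plus EMPA libraries, against 116, 119 and 144 TPM in the OM libraries. OM replicate 3 was the highest, and the groups did not overlap. Pdgfra had a log2 fold change of -0.35 (SE 0.08, 95% interval -0.55 to -0.16, adjusted p = 0.0488 from limma), close to the threshold. With any 1 library left out the call was lost, at an adjusted p of 0.0648 without OM replicate 1, 0.0706 without OM replicate 2, 0.0783 without OM replicate 3, 0.0793 without OM plus EMPA replicate 3, 0.151 without OM plus EMPA replicate 2 and also 0.109 without OM plus EMPA replicate 1, all from limma. It was also lost under median-ratio scaling of the libraries (log2 fold change -0.29, adjusted p = 0.0944 from limma), and the direction was the same in all 13 alternative fits. Pdgfra (ENSRNOG00000002244) lies on the minus strand of chromosome 14 from 33005638 to 33054519, and its row pools 2 reference transcripts and 9 transcripts that the authors' assembly added.

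**Figure D2:**
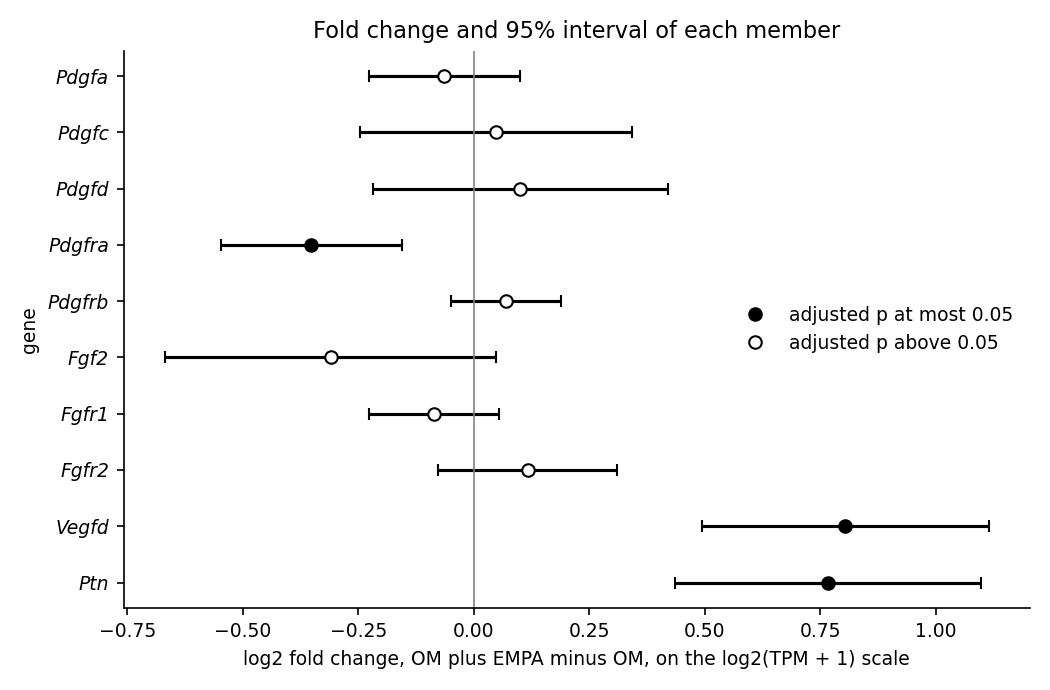
Log2 fold change of each of the 10 genes (horizontal axis, difference of mean log2(TPM + 1), OM plus EMPA minus OM), with its 95% interval from limma. Filled points passed the test and open points did not. Vegfd and Ptn lie at 0.80 and 0.77 and Pdgfra at -0.35, while the intervals of the other 7 genes include 0.

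The proximal promoters of the 3 genes that passed the test, Vegfd, Ptn and Pdgfra, are shown. Each is the RefSeq window of 300 bases on build GRCr8, from 250 before to 50 after the annotated start, printed 5′ to 3′ on the gene's strand, with the AP-1 motif TGANTCA and the TATA box TATAAA in capitals.
Vegfd promoter, GRCr8 chrX:33739843-33740142, minus strand: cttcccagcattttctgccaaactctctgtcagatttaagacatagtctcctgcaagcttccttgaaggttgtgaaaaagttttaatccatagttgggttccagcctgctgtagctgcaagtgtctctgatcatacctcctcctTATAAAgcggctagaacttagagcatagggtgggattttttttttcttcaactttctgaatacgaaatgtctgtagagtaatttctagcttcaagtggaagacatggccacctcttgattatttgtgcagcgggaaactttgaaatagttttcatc
Ptn promoter, GRCr8 chr4:66342283-66342582, minus strand: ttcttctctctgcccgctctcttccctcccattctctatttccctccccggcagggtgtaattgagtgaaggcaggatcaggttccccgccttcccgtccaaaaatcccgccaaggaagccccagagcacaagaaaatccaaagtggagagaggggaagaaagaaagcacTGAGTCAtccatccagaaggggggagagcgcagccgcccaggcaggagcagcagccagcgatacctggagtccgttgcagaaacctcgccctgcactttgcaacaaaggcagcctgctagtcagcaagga
Pdgfra promoter, GRCr8 chr14:33408467-33408766, minus strand: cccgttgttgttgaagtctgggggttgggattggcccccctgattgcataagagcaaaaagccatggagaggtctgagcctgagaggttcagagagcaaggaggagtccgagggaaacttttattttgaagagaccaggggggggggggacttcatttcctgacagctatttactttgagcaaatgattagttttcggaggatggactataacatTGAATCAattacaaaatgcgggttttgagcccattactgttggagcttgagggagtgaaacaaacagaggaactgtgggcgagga

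The window of Vegfd holds the letters of a TATA box, beginning at position -106 from the annotated start, and no AP-1 motif. Those of Ptn and Pdgfra each hold 1 AP-1 motif and no TATA box. A link between these motifs and the direction of change was not tested. All motifs were searched on both strands. Among 33469 rat promoter windows of the same length, 7.33% hold the AP-1 motif and 14.2% the TATA box. A CArG box, the motif of serum response factor, is in none of these 3 windows and in 1.64% of all windows. Of the other motifs searched, a GAS element (TTCNNNGAA) begins at -192 in the Vegfd window, and 8.87% of all windows hold one. A GC box (GGGCGG) begins at -47 in the Ptn window, on the opposite strand, and 33.1% of all windows hold one. The GC content was 40.7% for Vegfd, 57% for Ptn and 48% for Pdgfra, against a median of 51.7% over all windows. A match of letters is a description of the window and not a mapped binding site.

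Among the PDGF ligands, Pdgfa encodes the PDGF-A chain and made up 94.5 ± 0.169% of the summed TPM of Pdgfa, Pdgfc and Pdgfd in the OM plus EMPA group and 95.1 ± 0.432% in the OM group (SD, n = 3 each). Pdgfb was not listed and is not in that sum. Pdgfa had 166, 181 and 200.1 TPM in the OM plus EMPA libraries, against 180.2, 194 and 197 TPM in the OM libraries, with overlapping groups. Its log2 fold change was -0.06 (95% interval -0.23 to 0.10, adjusted p = 0.621 from limma). Its assembled locus on chromosome 12 begins well upstream of the reference gene. It overlaps Prkar1b and a row without a symbol on the same strand, so reads where the loci overlap cannot be assigned with certainty. Pdgfc and Pdgfd encode ligands that are secreted with a CUB domain, which proteases must remove before they bind a receptor. Pdgfc had 2.63, 2.48 and 2.35 TPM in the OM plus EMPA libraries, against 2.32, 2.84 and 2.0 TPM in the OM libraries, with a log2 fold change of 0.05 (95% interval -0.25 to 0.34, adjusted p = 0.849 from limma). Pdgfd had 7.38, 7.79 and 9.07 TPM in the OM plus EMPA libraries, against 6.21, 7.17 and 9.20 TPM in the OM libraries, with a log2 fold change of 0.10 (95% interval -0.22 to 0.42, adjusted p = 0.696 from limma). The Pdgfd locus overlaps a row without a symbol on the same strand, with the same limit on assigning reads. The groups overlapped for Pdgfc and Pdgfd, the intervals are wide, and a p above the threshold does not show that a ligand stayed the same.

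Of the PDGF receptors, Pdgfra fell and Pdgfrb did not pass the test. Pdgfrb, the β receptor of smooth muscle cells and pericytes, had 456, 421 and 467 TPM in the OM plus EMPA libraries, against 411, 434 and 435 TPM in the OM libraries. Its groups overlapped, and its log2 fold change was 0.07 (95% interval -0.05 to 0.19, adjusted p = 0.455 from limma). Within each library, where scaling cancels, the ratio of Pdgfra to Pdgfrb was 0.217, 0.220 and 0.221 in the OM plus EMPA group and 0.282, 0.274 and 0.331 in the OM group. The ratio was lower in each OM plus EMPA library than in any OM library. It was chosen after the values were seen and was given no test, nor were the other ratios below.

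**Figure D3:**
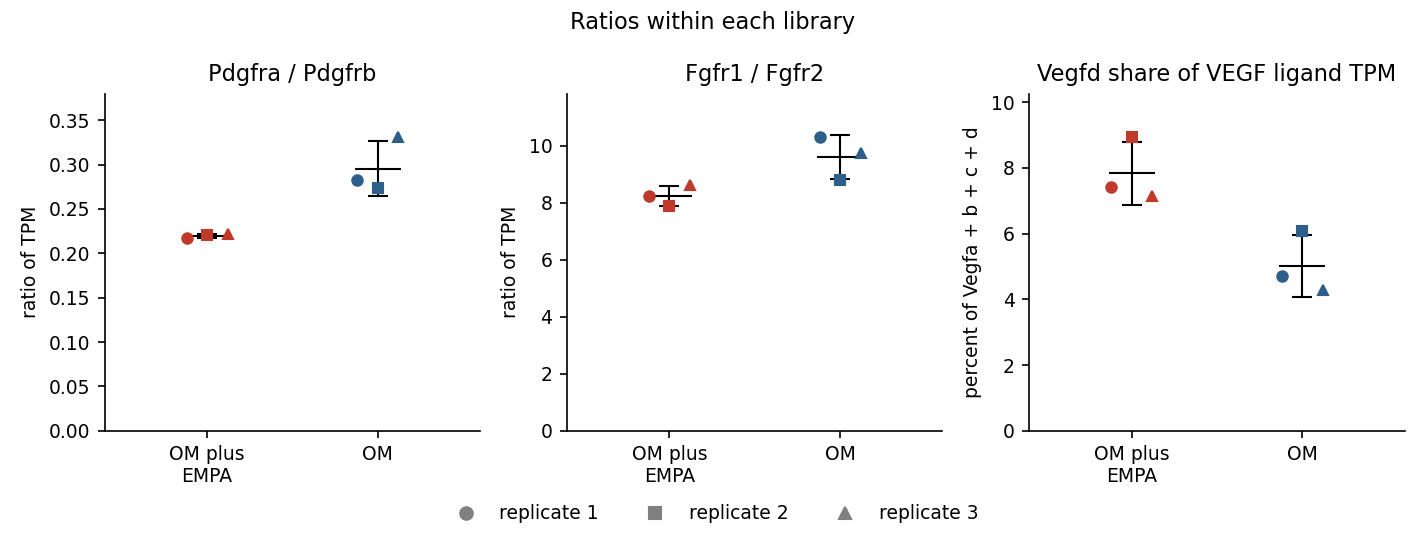
Ratio of Pdgfra to Pdgfrb, ratio of Fgfr1 to Fgfr2, and Vegfd as a percent of the summed TPM of Vegfa, Vegfb, Vegfc and Vegfd (vertical axes, from 0), in each OM plus EMPA library (red) and OM library (blue), with mean and SD. The Pdgfra to Pdgfrb ratio lies at 0.217 to 0.221 in the OM plus EMPA group and at 0.274 to 0.331 in the OM group.

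Fgf2, basic FGF and a mitogen of smooth muscle cells, had 3.77, 4.23 and 6.28 TPM in the OM plus EMPA libraries, against 6.11, 5.87 and 6.08 TPM in the OM libraries. Libraries 1 and 2 of the OM plus EMPA group were below the OM group and library 3 was above it. The log2 fold change was -0.31 (SE 0.15, 95% interval -0.67 to 0.05, adjusted p = 0.271 from limma). Without OM plus EMPA replicate 3 it was -0.49 (adjusted p = 0.0549 from limma), and without OM plus EMPA replicate 1 it was -0.19 (adjusted p = 0.509 from limma). Fgf2 overlaps Nudt6 on the opposite strand, and no source says that reads were counted by strand, so reads of the shared part cannot be assigned with certainty. Nudt6 was at 10.3 ± 0.874 TPM in the OM plus EMPA group versus 12.4 ± 1.23 TPM in the OM group, with a log2 fold change of -0.24 (adjusted p = 0.172 from limma).

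Neither FGF receptor passed the test. Fgfr1 had 68.2, 71.9 and 79.9 TPM in the OM plus EMPA libraries, against 79.5, 77.0 and 76.7 TPM in the OM libraries (log2 fold change -0.09, 95% interval -0.23 to 0.06, adjusted p = 0.437 from limma). Fgfr2 had 8.28, 9.11 and 9.28 TPM in the OM plus EMPA libraries, against 7.73, 8.77 and 7.87 TPM in the OM libraries (log2 fold change 0.12, 95% interval -0.08 to 0.31, adjusted p = 0.440 from limma). The groups overlapped for both genes. The row of Fgfr1 pools 2 reference transcripts and 18 that the authors' assembly added. The ratio of Fgfr1 to Fgfr2 was 8.25 ± 0.356 in the OM plus EMPA group and 9.60 ± 0.764 in the OM group (SD, n = 3 each). Its highest OM plus EMPA library, at 8.61, was just below the lowest OM library, at 8.78.

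All 10 genes carry the annotation positive regulation of cell population proliferation in the authors' table, a term held by 2.75% of its annotated genes. The genes were given by name as growth factors and receptors, so shared terms of this kind follow from that choice. Positive regulation of the ERK1 and ERK2 cascade is listed for 7 of them, all but Fgfr1, Vegfd and Ptn, and for 1.05% of annotated genes. Of the 3 genes that passed the test, Vegfd and Ptn thus lack the ERK term and Pdgfra has it. A missing term does not show that a gene has no part in that cascade.

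The gene whose log2(TPM + 1) followed Vegfd most closely over the 6 libraries, among 11152 other tested genes with a symbol, was Tgfb3, a ligand of the TGF-β family (Pearson r = 0.997). Tgfb3 had 59.1, 71.2 and 54.8 TPM in the OM plus EMPA libraries, against 31.8, 40.9 and 30.0 TPM in the OM libraries. For Ptn it was Serpina12, a serine protease inhibitor (r = 0.996), and for Pdgfra it was Zfyve16, which encodes an endosomal protein (r = 0.997). Serpina12 had a log2 fold change of 0.92 (adjusted p = 0.0247 from limma) and Zfyve16 one of -0.11 (adjusted p = 0.305 from limma). All points of these correlations share the same 6 libraries and 2 groups, and the values describe likeness only.

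Of 121 other genes of these pathways, in 8 lists, 95 were listed and 89 tested. Of these, 3 rose, 13 fell and 73 did not pass the test. The called genes were 18.0% of those tested, 3.37% higher and 14.6% lower, beside 6.92%, 2.06% and 4.86% of all tested genes. The median log2 fold change was -0.05 over the lists and -0.05 over all tested genes. The lists were chosen with results of these data known, and no test was made of these shares. Under median-ratio scaling 4 rose and 6 fell, and the calls lost were those of Fgf7, Nrp2, Grb2, Map2k1, Dusp6, Egfr and Hgf. Genes of these lists that did not pass the test are named where they bear on 1 of the 10 genes or as examples from the MAPK list. They were chosen after their values were seen. Among the other ligands of PDGF and FGF receptors, 2 of 5 tested genes fell. Fgf10, a ligand of the b splice form of FGFR2 that is made by mesenchymal cells, had 19.0, 13.4 and 20.5 TPM in the OM plus EMPA libraries, against 34.0, 26.8 and 36.8 TPM in the OM libraries (log2 fold change -0.85 with an SE of 0.17, adjusted p = 0.0262 from limma). Fgf7, another ligand of that receptor form, had 112, 96.8 and 116 TPM in the OM plus EMPA libraries, against 150.2, 130 and 163 TPM in the OM libraries (log2 fold change -0.44 with an SE of 0.10, adjusted p = 0.0359 from limma). For both genes the groups did not overlap. The calls held in 2 and 1 of the 6 fits with 1 library left out, with a largest adjusted p of 0.0867 and 0.108 from limma, each without OM replicate 1. Fgf1 had 3.21, 2.40 and 3.44 TPM in the OM plus EMPA libraries, against 1.78, 2.18 and 2.20 TPM in the OM libraries. Its groups were apart, as in 30.4% of all tested genes, and it did not pass (log2 fold change 0.39, adjusted p = 0.144 from limma). Fgf13 and Fgf22 had log2 fold changes of -0.08 and -0.12 with overlapping groups.

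Vegfa, the main angiogenic VEGF, also rose and was at 146 ± 2.88 TPM in the OM plus EMPA group versus 122 ± 3.20 TPM in the OM group (log2 fold change 0.25 with an SE of 0.04, adjusted p = 0.0122 from limma). That call was lost in 1 fit, without OM replicate 3 (adjusted p = 0.0513 from limma). Vegfc, the other ligand of VEGFR-3, was at 76.1 TPM in the OM plus EMPA group versus 68.0 TPM in the OM group and did not pass (log2 fold change 0.16, adjusted p = 0.181 from limma). Vegfd made up 7.43%, 8.93% and 7.15% of the summed TPM of Vegfa, Vegfb, Vegfc and Vegfd in the OM plus EMPA libraries, against 4.71%, 6.08% and 4.28% in the OM libraries. Flt4, which encodes VEGFR-3, was near 1 TPM, at 0.84 to 1.28 TPM in the OM plus EMPA group versus 0.84 to 1.37 TPM in the OM group. Kdr, another VEGF receptor gene, was not listed. The co-receptor Nrp2 fell by 0.25 on the log2 scale (adjusted p = 0.0449 from limma), a call that held in 0 of 6 fits with 1 library left out (largest adjusted p of 0.135 from limma, without OM replicate 3).

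Around pleiotrophin, 0 of 4 tested genes passed the test with limma, and 1 had an unadjusted p under 0.05. Alk and Ltk of that list were not listed in the deposited data. Ptprz1, its receptor phosphatase, had 11.4, 10.3 and 12.7 TPM in the OM plus EMPA libraries, against 13.2, 15.6 and 16.0 TPM in the OM libraries, with groups apart and a log2 fold change of -0.36 (adjusted p = 0.0782 from limma). Midkine, the product of Mdk and the closest relative of pleiotrophin, was at 2.27 TPM in the OM plus EMPA group versus 3.05 TPM in the OM group (log2 fold change -0.30, adjusted p = 0.363 from limma). Of 8 tested receptors and co-receptors beside the 10 genes, 1 fell, the heparan sulphate proteoglycan Sdc4 (log2 fold change -0.34, adjusted p = 0.0272 from limma). That call held in 2 of 6 fits with 1 library left out, with a largest adjusted p of 0.0884 from limma without OM plus EMPA replicate 2. The other syndecans did not pass, with log2 fold changes of -0.14 for Sdc1, 0.22 for Sdc2 and 0.37 for Sdc3. Groups did not overlap for these syndecans and for Ptprz1, beside 30.4% of all tested genes.

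Plat, tissue plasminogen activator and a protease that releases active PDGF-C, had 59.4, 53.5 and 52.0 TPM in the OM plus EMPA libraries, against 97.7, 73.1 and 74.2 TPM in the OM libraries (log2 fold change -0.55 with an SE of 0.11, adjusted p = 0.0290 from limma). It held in 2 of 6 fits with 1 library left out, with a largest adjusted p of 0.0972 from limma without OM plus EMPA replicate 2. Plau, urokinase, which does the same for PDGF-D, was under the filter at 0.57 to 0.63 TPM in the OM plus EMPA group versus 0.75 to 1.09 TPM in the OM group.

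Downstream of the receptors, 25 of 27 tested adaptor and kinase genes did not pass the test. The adaptor Grb2 and the MEK kinase gene Map2k1 fell by 0.25 and 0.21 on the log2 scale (adjusted p = 0.0359 and 0.0391 from limma), and each call held in 1 of 6 fits with 1 library left out, with a largest adjusted p of 0.101 and 0.116 from limma, both without OM replicate 3. Of 18 tested feedback inhibitors and targets of the MAPK pathway, 1 rose and 1 fell, and both encode phosphatases of MAP kinases. Dusp4 had 6.46, 6.34 and 6.64 TPM in the OM plus EMPA libraries, against 4.02, 3.82 and 3.43 TPM in the OM libraries (log2 fold change 0.65 with an SE of 0.09, adjusted p = 0.00750 from limma) and was called in each of the 13 alternative fits. Dusp6 had 65.1, 72.8 and 75.4 TPM in the OM plus EMPA libraries, against 92.7, 93.4 and 84.4 TPM in the OM libraries (log2 fold change -0.34 with an SE of 0.07, adjusted p = 0.0274 from limma), a call held in 2 of 6 fits with 1 library left out, with a largest adjusted p of 0.0882 from limma without OM replicate 1. The Sprouty genes Spry1, Spry2 and Spry4, which FGF signals induce, had log2 fold changes of 0.24, -0.02 and 0.17 and did not pass. Etv4, Myc and Ccnd1 of the same list had -0.21, -0.20 and -0.23 and did not pass either. Others that did not pass were Dusp5 and Ier3 at -0.39 and -0.53, Etv1, Etv5 and Egr1 at -0.01, -0.07 and -0.07, and Spred2 at 0.005. The median over the list was -0.09, beside -0.05 over all tested genes. Groups did not overlap for 2 genes of that list that were higher and 4 that were lower, beside 30.4% of all tested genes in either direction.

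Among 16 tested genes of other receptor tyrosine kinase systems, 1 rose and 5 fell. Tgfa, a ligand of the EGF receptor, was at 79.5 ± 6.52 TPM in the OM plus EMPA group versus 55.8 ± 5.25 TPM in the OM group (log2 fold change 0.50, adjusted p = 0.0140 from limma), and its receptor gene Egfr fell by 0.36 (adjusted p = 0.0356 from limma). Csf1, macrophage colony-stimulating factor, was at 277 ± 28.8 TPM in the OM plus EMPA group versus 415 ± 44.8 TPM in the OM group (log2 fold change -0.58, adjusted p = 0.0140 from limma). Axl, the receptor of Gas6, fell by 0.30 on the log2 scale (adjusted p = 0.00955 from limma), and Csf1 and Axl were called in each of the 13 alternative fits. Angpt1, a ligand of the endothelial receptor TIE2, fell by 0.52 (adjusted p = 0.0300 from limma). The calls held in 3 of 6 fits with 1 library left out for Tgfa, 1 of 6 for Angpt1, and 0 of 6 for Egfr and for the other gene that fell, Hgf. Egfr and Hgf were named after their values were seen.

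**Figure D4:**
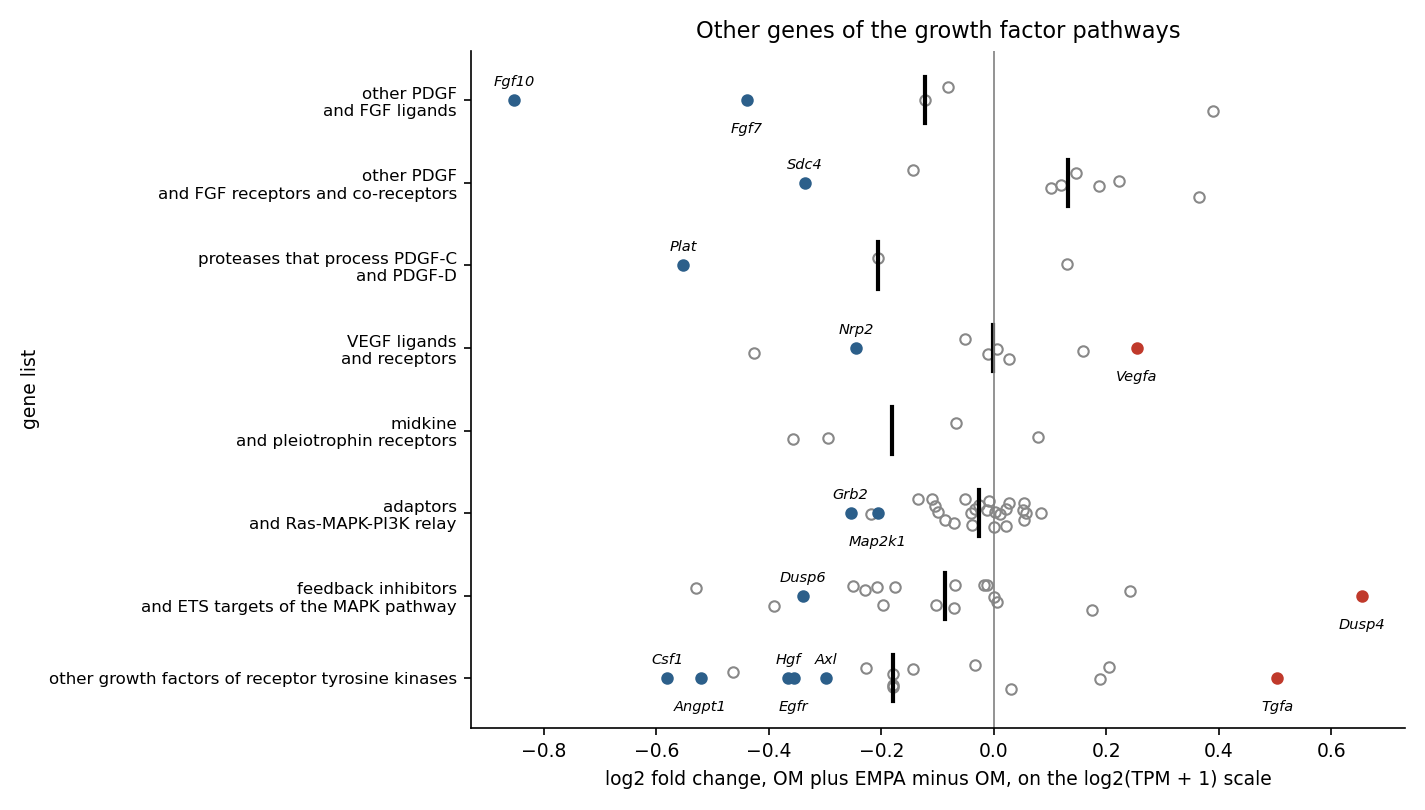
Log2 fold change with empagliflozin, as OM plus EMPA minus OM on log2(TPM + 1) (horizontal axis), of the 89 tested genes of 8 pathway lists (vertical axis). Genes that rose are filled red, genes that fell are filled blue, those that did not pass are open, and a black bar gives the median of each list. Fgf10 lies lowest at -0.85 and Dusp4 highest at 0.65.

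Markers of the cell types that such a culture could hold were set beside these results. All 7 smooth muscle markers were listed, and their summed level was 2478 to 2925 TPM in the OM plus EMPA group versus 1756 to 2158 TPM in the OM group, with 4 of 6 tested markers higher (Acta2, Tagln, Cnn1 and Lmod1). Tagln and Acta2 made up 95.5% to 96.1% of that sum in the OM plus EMPA group and 95.1% to 95.8% in the OM group. Myh11, the smooth muscle myosin heavy chain, was at 15.8 TPM in the OM plus EMPA group versus 17.9 TPM in the OM group with overlapping groups (log2 fold change -0.17, adjusted p = 0.455 from limma), and Smtn had a log2 fold change of 0.15 without passing. Of 7 adventitial fibroblast markers 5 were listed, with a summed level of 4549 to 5308 TPM in the OM plus EMPA group versus 5976 to 6795 TPM in the OM group. Nearly all of that sum is Dcn and Lum, which cultured VSMCs also express, and of 4 tested markers 1 fell, Dcn, with a log2 fold change of -0.39, while Pi16 and Clec3b had 0.26 and 0.64 without passing. The fibroblast sum was lower and the smooth muscle sum higher in the OM plus EMPA group. Pi16 and Clec3b, and Myh11, had the opposite sign to the sum of their list. The part of cell makeup in the changes of Pdgfra, Vegfd and Ptn was not tested. Of 7 endothelial markers 1 was listed, Egfl7, at 21.1 to 22.3 TPM in the OM plus EMPA group versus 19.6 to 21.5 TPM in the OM group. Of 7 macrophage and leukocyte markers 2 were listed, Cd14 and Cd68, with a sum of 30.1 to 40.0 TPM in the OM plus EMPA group versus 40.5 to 44.3 TPM in the OM group. Cd68 fell by 0.83 on the log2 scale (adjusted p = 0.0378 from limma), and Cd14 did not pass (log2 fold change -0.15, adjusted p = 0.542 from limma). Ptprc, Adgre1, Csf1r, Lyz2 and Cd3e were not listed, and whether the fall of Cd68 reflects macrophages was not tested. Transcripts of the mitochondrial genome made up 10.3% to 10.9% of TPM in the OM plus EMPA group and 8.0% to 9.69% in the OM group, which lowers the TPM of other genes, and with TPM rescaled without them Pdgfra had a log2 fold change of -0.32 (adjusted p = 0.0690 from limma).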

How the data were processed

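RNA-seq of 6 libraries was used, 3 of the OM plus EMPA group and 3 of the OM group, grouped by the treatment in the sample labels. The authors deposited gene values as TPM, in rows whose identifiers join reference genes with assembled loci. RSEM, HISAT2 2.0.5, fastp and DESeq2 appear in the processing notes of the submitters, with no role stated. No genome build was named in the sources used here. TPM sums were nearly equal across libraries, keep no record of depth, and leave the counting precision of each value unknown. The authors' own fold changes and p-values, and a second table holding a subset of the genes, were not used. No column of an unknown sample was found.

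The 12564 of 13526 genes that averaged 1 TPM or more were tested on log2(TPM + 1) by limma 3.58.1 in R 4.3.3, with a variance trend, 4 residual and 3.8 prior degrees of freedom, and Benjamini-Hochberg adjustment over all tested genes. Calls have an adjusted p of at most 0.05. All 10 genes are named. Of each pathway list, up to 3 genes with the smallest p in each direction among those called are named, and for each of the 10 genes that was called, the gene with the highest Pearson correlation over the 6 libraries. The 10 genes and the lists were chosen with earlier results of these data known. Alternatives were a pseudocount of 0.1, other filters, median-ratio scaling, TPM without mitochondrial genes, a replicate block, no variance trend, a fold threshold of 1.5 and each library left out. Promoter windows came from RefSeq (GRCr8), which held 8 of the 10 genes. Python 3.11.15 with pandas 2.3.3, numpy 2.4.6 and matplotlib 3.10.9 was used for descriptions and plots.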

Additional observations from a re-analysis of the deposited data

How the results depend on the processing

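Over all tested genes, 259 were called higher and 611 lower. The counts were 394 and 380 under median-ratio scaling, 154 and 366 without the variance trend, 66 and 183 with a fold change of at least 1.5, and 80 to 216 and 245 to 438 with 1 library left out. Of the 10 genes, 2 were called higher in each of these and the remaining settings with all 6 libraries, and 0 to 1 with 1 library left out. The 1 gene called lower, Pdgfra, was called in 0 fits with 1 library left out, and the count was 0 without the filter on low values (adjusted p = 0.0527 from limma), under median-ratio scaling, without mitochondrial genes, without the variance trend (adjusted p = 0.1003 from limma) and with a fold change of at least 1.5. Of the pathway genes, 3 were called higher, against 1 with a fold change of at least 1.5 and 1 to 5 with 1 library left out. The 13 called lower became 6 under median-ratio scaling, 8 without mitochondrial genes, 4 without the variance trend, 1 with a fold change of at least 1.5 and 3 to 7 with 1 library left out. With 1 library left out the log2 fold change of 3 genes that did not pass changed sign, with a range of -0.13 to 0.000161 for Pdgfa, -0.035 to 0.14 for Pdgfc and -0.012 to 0.24 for Pdgfd. The cause of these shifts was not tested.

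With the replicate number as a block, the replicate block fit called 449 genes higher and 951 lower, and 5 pathway genes higher and 19 lower, and it changed no call among the 10 genes. Deviations of same-numbered samples correlated at 0.0979, 0.162 and 0.0575, each sample correlating best with its own number, and the labels do not say that a number marks a shared culture or day, so the numbers were not used as pairs.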
